A study of Mus musculus with 2 samples.

Results

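Canonical Wnt signalling was followed through 10 of its genes in the distal and proximal parts of mouse limb-mesenchymal organoids. They are the 4 TCF/LEF transcription factors (Lef1, Tcf7, Tcf7l1 and Tcf7l2), the coactivator Ctnnb1, and 5 genes known as Wnt targets (Axin2, Nkd1, Sp5, Dkk1 and Notum). Members were taken by gene symbol from the authors' deposited table of 13916 protein-coding genes, by a rule that uses no measured value. The list itself was chosen with earlier results of these data known. The table analysed here has a row for 9 of the 10. Sp5, a zinc-finger transcription factor, has none and counts as not detected.

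In canonical Wnt signalling a secreted Wnt protein binds a Frizzled receptor and an LRP coreceptor at the cell surface. This stops the destruction complex, built on Axin, from degrading β-catenin, the product of Ctnnb1. β-catenin then enters the nucleus, binds TCF/LEF proteins that already sit on DNA, and turns their target genes on. Several targets damp the pathway again. Axin2 rebuilds the destruction complex, Nkd1 acts on Dishevelled, Dkk1 blocks the LRP coreceptors, and Notum is a secreted enzyme that removes the lipid from Wnt proteins. In the limb bud, Wnts from the ectoderm act together with FGFs to keep the underlying mesenchyme growing and to hold back cartilage.

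Limb mesenchymal cells from Slc:ICR mouse embryos formed organoids over 48 h in medium with Fgf8b and Wnt3a, and 5 organoids from 4 surrogate cultures were frozen on day 2. Distal areas of 10 µm sections formed one group and proximal areas the other, each chosen by patterned ultraviolet light that frees cDNA made in the section with caged primers (photo-isolation chemistry). Both groups had the same Fgf8b and Wnt3a, and no sample without Wnt3a is compared here. Each side holds 5 barcoded regions pooled into 1 library, so side and library cannot be told apart, and the labels do not say which region came from which organoid. All p-values measure the spread between these regions, part of which may be technical.

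The authors' deposited table gives 1 mean, log2 change and standard error per gene, and for genes with few counts these 3 values fit only 1 set of whole counts in the 10 regions, called solved counts here. A normalised count is a region's count divided by its size factor, the scaling that makes regions comparable. A region was taken as distal where the authors' log2 change rises from genes with 1 count in that region to genes with 2 there, and as proximal where it falls. The regions differed in depth. Size factors were 0.329 to 0.832 in the 5 distal regions and 1.502 to 2.42 in the 5 proximal regions, which corresponds to about 46991 to 118978 and 214774 to 345649 counts in the listed genes. Regions are numbered here by falling size factor within a side, so distal region 5 is the shallowest. All 8 limb mesenchyme markers had a row, with means of 159 for Prrx1 and 74.0 for Twist1 in the authors' deposited table. Called among them were 4, with Hoxd13 (log2 change 1.16) and Msx1 (1.12) higher and Pdgfra (-0.86) and Tbx5 (-1.41) lower in distal by the authors' deposited table. Surface ectoderm and apical ridge markers gave 2 distal and 9 proximal counts over the 4 of 11 genes with a row, endothelial markers 8 and 11 counts over 5 of 6 genes, and 0 of 8 blood genes had a row. The proximal side is deeper, so raw counts do not compare the sides. Summed normalised levels were 0.678 in distal and 0.933 in proximal for the ectoderm markers, and 2.58 and 1.13 for the endothelial markers. None of these markers was called. In material made of many cells, fewer cells of a type and less RNA per cell cannot be told apart.

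TCF/LEF proteins bind DNA at a short core, and the stretches in front of members' start sites that hold this core are shown so that the letters can be read beside the values of the same genes below. The 4 forms searched, on both strands and in the 250 bases before each start in RefSeq's promoter table (GRCm38.p6), were CTTTGAT, in 3.21% of all 32851 windows, CTTTGTT, in 5.03%, CTTTGAA, in 4.46%, and CTTTGTA, in 3.20%. At least 1 form was found in 14.8% of windows. The table has 15 windows for 9 members, and 4 windows, of Sp5, Dkk1, Tcf7l2 and Lef1, held a match. Matches are in capitals, written 5′ to 3′ on the gene's strand.
Sp5, 104 bases before the start, chr2:70474802-70474842, plus strand, outside the gene: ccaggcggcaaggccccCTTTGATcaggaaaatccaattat
Sp5, 222 bases before the start, chr2:70474684-70474724, plus strand, outside the gene, reverse complement: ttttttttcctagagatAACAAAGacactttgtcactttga
Dkk1, 117 and 98 bases before the RefSeq start, chr19:30549586-30549615, minus strand, in an exon of the GENCODE M21 gene: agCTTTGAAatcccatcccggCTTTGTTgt
Tcf7l2, 14 bases before an internal start, chr19:55895290-55895320, plus strand, intron: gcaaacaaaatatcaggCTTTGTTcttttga
Lef1, 147 bases before an internal start, chr3:131156130-131156170, plus strand, intron, reverse complement: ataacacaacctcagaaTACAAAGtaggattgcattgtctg
CTTTGAT was found in the Sp5 window and in no other member's window. A match is a description of these letters only.

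The first question was whether the factors that read the Wnt signal in the nucleus differed along the organoid. Tcf7l2 was higher in distal, the only one of the 9 members with a row that passed the threshold, an adjusted p under 0.05. The authors' deposited table gives it a mean of 222 normalised counts over the 10 regions and a log2 change of 0.69 (SE 0.15, adjusted p = 0.000848). Together these correspond to levels of about 274 in distal and 169 in proximal, a 1.62-fold difference that rests on about 803 distal and 1635 proximal counts. Of all genes in the authors' deposited table, 0.977% were called in either direction, 0.395% as higher and 0.582% as lower in distal, and among the 3757 genes with means of 10 or more 3.03% were called, 1.36% as higher. Sox9, which drives cartilage formation and is the marker of highest mean on the cartilage list, was called in the same direction, at 0.69 on the log2 scale (adjusted p = 4.7e-05) by the authors' deposited table. It was the 1 called gene of the 6 cartilage markers with a row, whose summed level was about 1361 in distal and 968 in proximal. Sox9 itself made up about 842 and 522 of these. Of the 6 markers, 4 had a positive and 2 a negative log2 change, with a median of 0.13. The negative ones were Sox6 (-0.13) and Acan (-1.57, on 7 distal and 69 proximal counts) by the authors' deposited table. The part of Sox9-positive cells, and of the distal markers Hoxd13 and Msx1, in the Tcf7l2 value was not tested. Tcf7l2 lies on chromosome 19 (GRCm38, 55741820 to 55933654, plus strand).

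Tcf7l1 and Lef1 had positive log2 changes of like size but did not pass. Tcf7l1, in stem and progenitor cells known mainly as a repressor of Wnt targets, had a mean of 69.0 and a log2 change of 0.51 (SE 0.18, unadjusted p = 0.00439, adjusted p = 0.251) in the authors' deposited table. Its levels came to about 81.1 in distal and 56.9 in proximal, and it lies on chromosome 6 (72626378 to 72789254, minus strand). Lef1, known mainly as an activator and itself a Wnt target, had a mean of 32.1 and a log2 change of 0.71 (SE 0.30, unadjusted p = 0.0187, adjusted p = 0.571) in the authors' deposited table. About 39.9 distal and 24.4 proximal normalised counts correspond to these values, and the gene lies on chromosome 3 (131110471 to 131224356, plus strand). Tcf7l2, Tcf7l1 and Lef1 are the 3 members with a mean of 10 or more, and each had an unadjusted p under 0.05 towards distal. Of all 3757 genes with such means, the authors' deposited table gives 6.41% such a p towards distal, and their median log2 change was 0.0047.

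**Figure D1:**
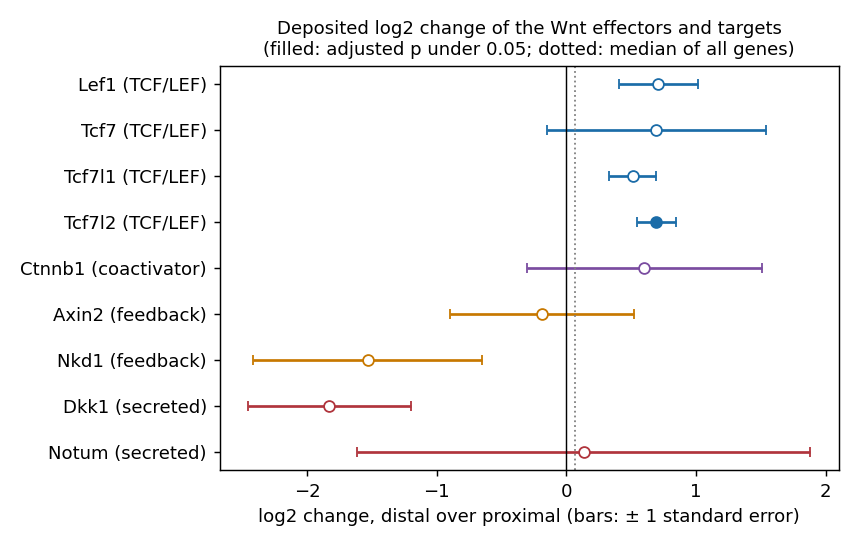
Log2 change of distal over proximal for the 9 members with a row, from the authors' deposited table, with bars of 1 standard error, coloured by role. Tcf7l2 is the filled point at 0.69. Lef1, Tcf7l1 and Tcf7l2 lie between 0.51 and 0.71 with bars clear of 0, Nkd1 and Dkk1 lie at -1.53 and -1.83, and the bars of Tcf7, Ctnnb1, Axin2 and Notum cross 0.

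For these 3 genes no counts per region could be solved, and the levels above come from the mean and the log2 change alone. On 286 genes with a mean between 5.5 and 6 and solved counts, levels computed this way were off by a median of 2.16% in distal and 2.05% in proximal. The standard errors correspond to a fitted spread between regions beyond counting, as a coefficient of variation. It came to about 14.9% for Tcf7l2, 15.2% for Tcf7l1 and 27.6% for Lef1. These are values of the authors' fit, and the spread of the genes' own region values is not known. The fitted spreads of Tcf7l2 and Tcf7l1 were similar, with a larger log2 change and more counts for Tcf7l2.

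Tcf7, the fourth factor of the family and a Wnt target in many tissues (chromosome 11, 52252371 to 52283014, minus strand), was covered by few counts. Whole counts could be solved for it, and were 2, 1, 3, 1 and 0 in distal regions 1 to 5 and 4, 3, 1, 4 and 2 in proximal regions 1 to 5. Divided by the size factors, these were 2.40, 1.43, 5.37, 1.96 and 0 normalised counts in distal and 1.65, 1.36, 0.511, 2.55 and 1.33 in proximal. The sides overlapped, and a single distal region with 3 counts stood highest. The mean was 2.23 ± 1.97 in distal and 1.48 ± 0.734 in proximal (SD, n = 5 regions each). The difference in mean log2(normalised count + 1) was 0.20, with a two-sided exact permutation p of 0.706, and its sign changed without distal region 3. The authors' deposited table gives Tcf7 0.69 (SE 0.84), so at this depth a change as large as that of Tcf7l2 was not detectable for Tcf7.

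**Figure D2:**
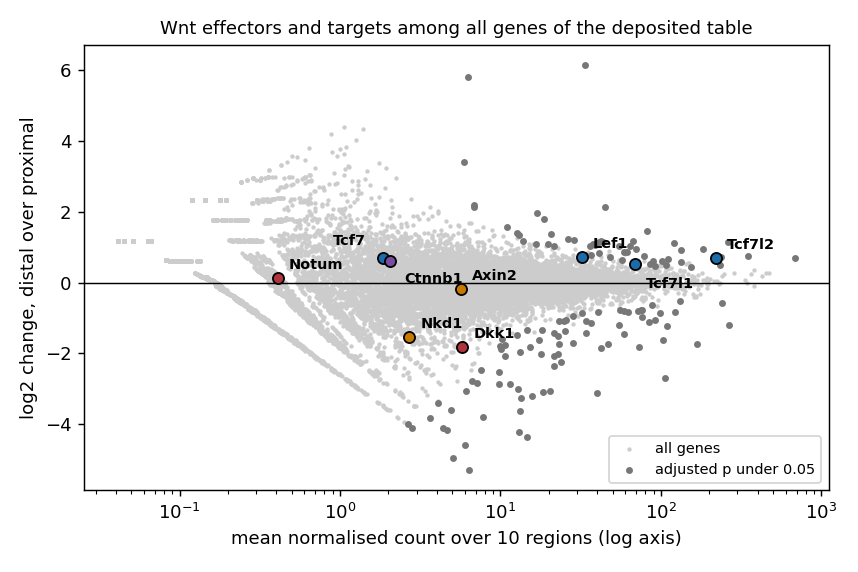
Log2 change of distal over proximal against the mean normalised count over 10 regions (log axis) for all 13916 genes of the authors' deposited table, with called genes in dark grey and the members in colour. Tcf7l2, Tcf7l1 and Lef1 stand at means of 222, 69.0 and 32.1, and the other members at means from 0.412 to 5.79, where the cloud of all genes is wide.

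Set per kilobase of annotated exon (GENCODE M21, all exons of a gene merged), the means in the authors' deposited table were 25.3 normalised counts per kb for Tcf7l2, 17.6 for Tcf7l1, 3.65 for Lef1 and 0.707 for Tcf7. Ctnnb1 stood at 0.395 per kb, below every TCF/LEF gene. Whether reads were counted over the whole transcript or near its end is not given in the sources used here, so this order depends on the length used. How reads in overlapping genes were counted is not given either. Ctnnb1, Lef1, Tcf7 and Tcf7l1 each overlap a gene on the opposite strand, so a low value need not mean low expression.

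No difference between the sides was detectable for Ctnnb1 (chromosome 9, 120929216 to 120960507, plus strand). It overlaps the protein-coding gene Ulk4 on the opposite strand, and without strand in the counting their reads cannot be told apart. Its solved counts were 2, 0, 1, 0 and 3 in distal regions 1 to 5 and 5, 3, 1, 2 and 3 in proximal regions 1 to 5. As normalised counts these were 2.40, 0, 1.79, 0 and 9.13 in distal, and 2.07, 1.36, 0.511, 1.28 and 2.00 in proximal. Distal region 5 stood far above the rest on 3 counts, and the proximal values lay inside the distal range. The mean was 2.66 ± 3.77 in distal and 1.44 ± 0.633 in proximal (SD, n = 5 regions each), and the exact permutation p (two-sided) of the log2 difference of 0.073 was 0.944. Its log2 change was 0.60 (SE 0.90) by the authors' deposited table. Refitted without distal region 5, the log2 change was -0.36.

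Ctnnb1 protein also links cadherins to the cytoskeleton, and 5 of its 7 listed partners at the adherens junction had a mean of 10 or more. All 7 had a row and 0 were called, and the median log2 change was 0.23. The authors' deposited table gives Cdh11, a cadherin of mesenchyme, a mean of 170 and a log2 change of 0.23, and Ctnna1 (α-catenin) 79.1 and 0.071. Jup, which encodes plakoglobin, the close relative of β-catenin, stood at 0.80 (unadjusted p = 0.0198, adjusted p = 0.589) by the authors' deposited table.

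The second question was whether genes that Wnt signalling turns on differed between the sides. None of the 4 targets with a row was called. Dkk1 and Nkd1 had negative log2 changes, Axin2 lay near 0, and Notum was close to the limit of detection.

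Dkk1 encodes a secreted inhibitor of the LRP coreceptors and lies on chromosome 19 (GRCm38, 30545863 to 30549665, minus strand). Its solved counts were 1, 1, 0, 3 and 2 in distal regions 1 to 5 and 21, 19, 19, 11 and 14 in proximal regions 1 to 5. As normalised counts these were 1.202, 1.43, 0, 5.88 and 6.09 in distal, and 8.69, 8.59, 9.71, 7.02 and 9.32 in proximal. Every proximal region stood above every distal region, although distal regions 4 and 5 came close to the lowest proximal one. The mean was 2.92 ± 2.85 in distal and 8.67 ± 1.03 in proximal (SD, n = 5 regions each).

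The exact permutation p (two-sided) of the Dkk1 difference, -1.66 in mean log2(normalised count + 1), was 0.00794, the smallest that 5 regions against 5 can give. It is 1 of 6 such p-values computed, none of them adjusted. The authors' deposited table gives Dkk1 a log2 change of -1.83 (SE 0.63, unadjusted p = 0.00364, adjusted p = 0.219), so Dkk1 was not called. Among the 286 genes with a mean between 5.5 and 6, 3.15% had region values that were all lower in distal, and 8.74% had an exact p under 0.05 towards proximal. Scaled by the summed solved counts of genes with a mean under 3 in place of the size factors, the Dkk1 difference was -1.46 with an exact permutation p of 0.0556. Over all regions Dkk1 had 7 distal and 84 proximal counts. The distal share was 7.69% (95% Clopper-Pearson interval 3.15 to 15.2%, counting error only), where the distal regions hold 23.3% of the summed size factors.

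Nkd1, an intracellular antagonist, lies on chromosome 8 (GRCm38, 88521354 to 88594884, plus strand). Its solved counts were 2, 0, 0, 1 and 1 in distal regions 1 to 5 and 13, 8, 8, 2 and 8 in proximal regions 1 to 5. The normalised counts were 2.40, 0, 0, 1.96 and 3.04 in distal, and 5.38, 3.62, 4.09, 1.28 and 5.33 in proximal. Proximal region 4 fell among the distal values, and the other 4 proximal regions stood above them all. The mean was 1.48 ± 1.41 in distal and 3.94 ± 1.67 in proximal (SD, n = 5 regions each). The difference in mean log2(normalised count + 1) was -1.15, with an exact permutation p (two-sided) of 0.0635. Leaving out each region in turn gave an exact permutation p from 0.0238 (without proximal region 4) to 0.135 (without proximal region 1 or 5), under 0.05 only without proximal region 4 or distal region 5 (0.0317). Scaled by summed solved counts, the exact permutation p was 0.151. The authors' deposited table gives Nkd1 -1.53 on the log2 scale (SE 0.88, unadjusted p = 0.0816, adjusted p = 0.991).

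Skeletal muscle markers moved the same way as Dkk1 and Nkd1. All 10 listed had a row, 9 had a negative log2 change and 4 of them (Actc1, Myl1, Myog and Tnnt1) were called lower in distal. Their summed level was about 11.2 in distal and 116 in proximal. Over the 8 markers with solved counts the sum ranged from 0 to 8.59 in distal regions and from 17.9 to 41.8 in proximal regions. Pax3, Pax7, Myf5 and Des had 0 distal counts, which allows a level of up to 1.02 normalised counts (3 counts over the side). The part of muscle cells, and that of the lower depth of every distal region, in the Dkk1 and Nkd1 values was not tested.

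**Figure D3:**
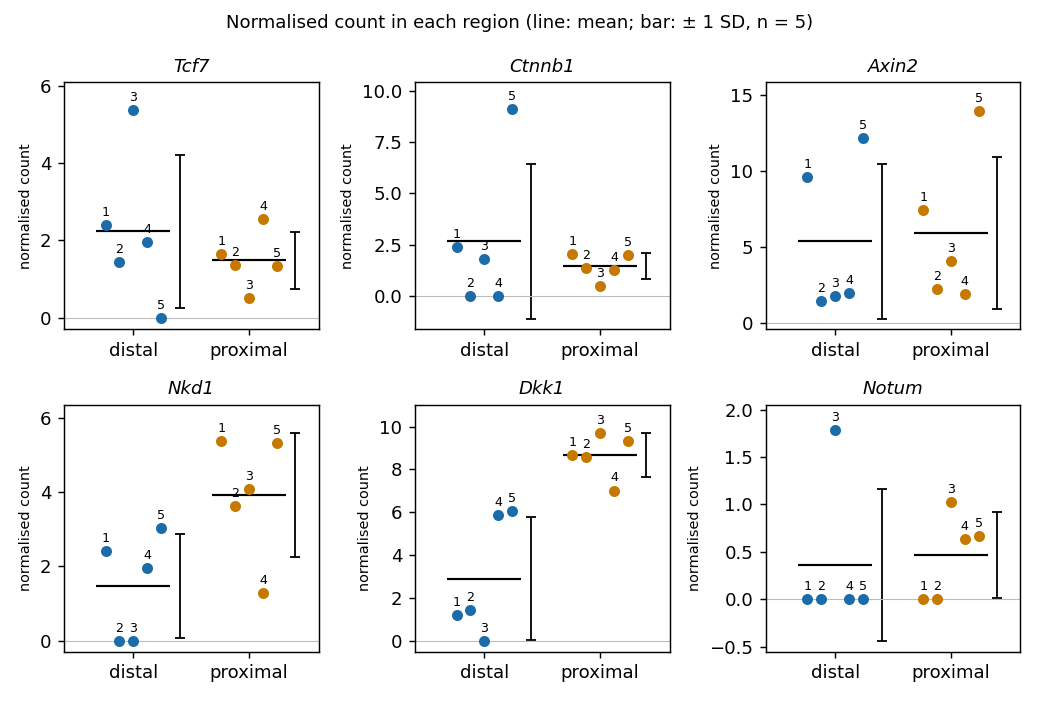
Normalised count of the 6 members with solved counts in each of 5 distal (blue) and 5 proximal (orange) regions. Numbers give the region, the line the mean and the bar 1 SD. The sides are apart for Dkk1, where distal runs from 0 to 6.09 and proximal from 7.02 to 9.71, and overlap for the other 5 genes.

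Axin2, which encodes a scaffold of the destruction complex and is widely used as a readout of canonical Wnt signalling, showed no detectable difference between the sides and varied widely within each. It lies on chromosome 11 (GRCm38, 108920349 to 108950783, plus strand). Its solved counts were 8, 1, 1, 1 and 4 in distal regions 1 to 5 and 18, 5, 8, 3 and 21 in proximal regions 1 to 5. The normalised counts were 9.61, 1.43, 1.79, 1.96 and 12.2 in distal, and 7.45, 2.26, 4.09, 1.91 and 14.0 in proximal. Regions 1 and 5 were the highest of each side, and the remaining 6 regions lay between 1.43 and 4.09. The mean was 5.39 ± 5.10 in distal and 5.94 ± 5.001 in proximal (SD, n = 5 regions each).

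Axin2 had a log2 change of -0.19 (SE 0.71) by the authors' deposited table. Its difference in mean log2(normalised count + 1) was -0.23, with an exact permutation p (two-sided) of 0.706. The sign of the refitted log2 change depended on single regions. It was 0.37 without proximal region 5, and lay from -0.67 to 0.37 when each region was left out in turn.

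The spread of Axin2 between proximal regions was set beside that of genes of like mean. Its coefficient of variation over the 5 proximal regions was 84.2%, where counting alone would give about 30.0%. Of the 286 genes with a mean between 5.5 and 6, 2 were at least this variable, Axin2 included, and the median was 32.6%. Without proximal region 5 the value of Axin2 was 64.5%, which 6 of the 286 genes reached, and without proximal region 1 it was 102%, which 2 reached. Dkk1 was among the most even of these genes, at 11.9%, with 8 of the 286 at or under its value, itself included, where counting alone would give about 24.9%. The spread of Dkk1 was thus smaller than counting error alone, and evenness of the gene itself cannot be read from it. In distal, where the regions are shallower, the coefficients were 94.6% for Axin2 and 97.6% for Dkk1, with a median of 56.9%. What sets the Axin2 level of a region was not tested.

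**Figure D4:**
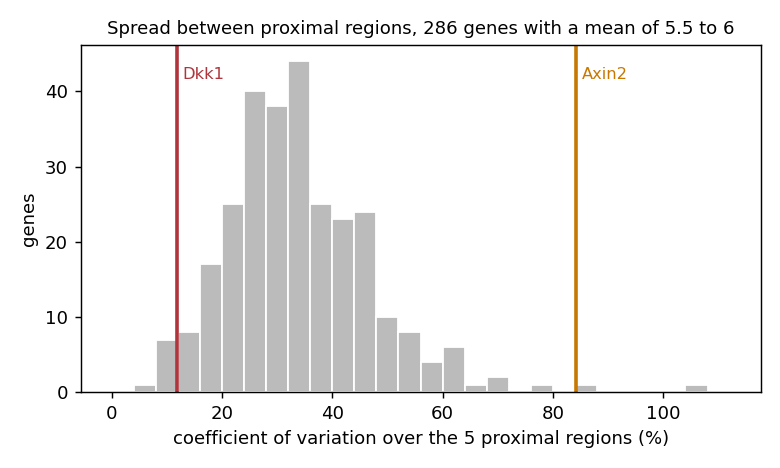
Histogram of the coefficient of variation over the 5 proximal regions for the 286 genes with a mean between 5.5 and 6 and solved counts. Dkk1 (red line, 11.9%) and Axin2 (orange line, 84.2%) stand on opposite sides of the median of 32.6%.

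Axin2, Nkd1 and Ctnnb1 had their highest values in the same regions, a pattern seen after the values were known and not tested. For each of the 3 genes, regions 1 and 5 were the leading pair in distal and again in proximal. Over the 10 regions Spearman's rho was 0.78 between Axin2 and Nkd1, 0.73 between Axin2 and Ctnnb1 and 0.41 between Nkd1 and Ctnnb1. The genes share libraries and size factors, and some of the ranks rest on 1 to 3 counts. Dkk1 followed Nkd1 (rho 0.82) more than Axin2 (rho 0.47). Dkk1 and Nkd1 both had lower means in distal, which enters a rho over all 10 regions, and neither gene was called.

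Notum (chromosome 11, 120653788 to 120661175, minus strand) was seen in 5 counts in all. One lay in distal region 3, and proximal regions 3, 4 and 5 held 2, 1 and 1, while the other 6 regions had 0. The normalised counts were 1.79 in that distal region and 1.02, 0.638 and 0.666 in those proximal regions. The ratio of proximal to distal was 1.21 with a 95% exact counting interval of 0.120 to 59.8, so no difference was detectable at this depth. The exact permutation p (two-sided) was 0.683. The authors' deposited table lists 0.13 (SE 1.75) on the log2 scale, whereas the log2 ratio of the mean normalised counts was -0.38.

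As a group, 6 of the 9 members had a positive log2 change and 3 a negative one. The median of the 9 was 0.51, against 0.07 over all 13916 genes. Among the positive ones, Tcf7, Ctnnb1 and Notum rest on 21, 20 and 5 counts in all, and their signs depended on the measure or on single regions. The region difference of Tcf7 was -0.10 without distal region 3. Ctnnb1 was refitted at -0.36 without distal region 5, and the log2 ratio of means of Notum was -0.38. The negative sign of Axin2 changed as well. An unadjusted p under 0.05 was found for 4 of the 9, 3 towards distal and 1 towards proximal. Of all genes in the authors' deposited table, 6.07% had one, 2.56% towards distal and 3.51% towards proximal. The 4 TCF/LEF genes lay from 0.51 to 0.71, with Tcf7 on 7 distal and 14 proximal counts, and the targets from -1.83 to 0.13. Centring on the median of all genes, or of those with means of 10 or more, lowers each value by only 0.067 or 0.0047. That is too little to change any of these signs, so the kept signs are no check.

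The rest of the pathway was taken from 9 lists of 102 genes, of which 82 had a row. Like the members, these lists were chosen with earlier results of these data known. Called were 6 genes, 2 higher and 4 lower in distal, or 7.32% where 0.977% of all genes were. Genes of higher mean are called more often. Among the 38 with means of 10 or more 4 were called, where 3.03% of all such genes were. An unadjusted p under 0.05 was found for 12 of the 82 (14.6%, against 6.07% of all genes), 4 towards distal and 8 towards proximal. The median log2 change of the 82 was -0.025, and that of the 38 with means of 10 or more was 0.0019. Genes with few counts can carry a sign that their counts do not: Wnt2b, Rspo1 and Sfrp4, each with 0 distal and 1 proximal count, are listed at 1.19 in the authors' deposited table, and such values enter the medians over all genes and over the lists.

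Ligands differed in both directions. Of 19 Wnt genes 6 had a row. Wnt5a, known for signalling outside the β-catenin branch and for outgrowth of the limb, was higher in distal, at 0.96 on the log2 scale (mean 184, SE 0.19, adjusted p = 0.000137) by the authors' deposited table. Wnt4, known in the limb for its expression at forming joints, was lower in distal (adjusted p = 0.0220 by the authors' deposited table). Its solved counts were 0, 1, 0, 0 and 0 in distal regions and 12, 18, 10, 19 and 7 in proximal regions 1 to 5. Every proximal region was above every distal one, and the ratio of proximal to distal was 20.0 (95% exact counting interval 3.47 to 803). Wnt3a, the ligand added to the medium, had no row.

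Among the 12 receptor genes, all with a row, 1 was called in each direction. Fzd4 was higher in distal, at 0.78 on the log2 scale (SE 0.20, adjusted p = 0.0167) by the authors' deposited table. Fzd2 was lower in distal, at -0.62 (SE 0.17, adjusted p = 0.0348) by the authors' deposited table. Fzd2 had the highest mean of the list, 87.9. Fzd1 and the coreceptor gene Lrp6 did not pass, at -1.17 (adjusted p = 0.172) and -0.55 (adjusted p = 0.725) by the authors' deposited table.

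Secreted antagonists other than Dkk1 and Notum were lower in distal where they were called. The list of 14 genes also holds Kremen1, Kremen2 and Apcdd1, which encode membrane proteins, so its values are not of secreted proteins alone. Of the 14 genes 11 had a row, Kremen1 and Kremen2 among them. Called were 2, both lower in distal, and the median log2 change was -0.75, against 0.07 for all genes. For the 4 with means of 10 or more it was -0.71, against 0.0047 for all such genes. Sfrp2, a decoy that binds Wnt proteins, stood at -2.01 on the log2 scale (mean 17.98, SE 0.42, adjusted p = 0.000344) by the authors' deposited table. Dkk2, a relative of Dkk1, had adjusted p = 0.0492 by the authors' deposited table. Its solved counts were 2 in distal region 1 and 0 in the other distal regions, and 24, 13, 12, 12 and 13 in proximal regions 1 to 5. The Dkk2 ratio of proximal to distal was 11.2 (95% exact counting interval 3.00 to 94.4). Wif1, another decoy and the gene of highest mean on the list at 24.1, stood at 0.15 by the authors' deposited table. The muscle markers given above move with these genes and with Wnt4 as well, and their part was not tested.

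No gene of the lists for Wnt secretion, R-spondins and their receptors, cytoplasmic transduction, nuclear cofactors or other Wnt targets was called. By the authors' deposited table log2 changes were -0.18 for Wls and -1.64 for Porcn, both needed to release Wnt proteins, 0.10 for the R-spondin receptor gene Lgr4 and -0.41 for Lgr5. The kinases of the destruction complex had 0.02 for Gsk3b and -0.20 for Csnk1a1. The nuclear cofactors, on 13 of 14 genes with a row, had a median log2 change of 0.04. Among them Tle1, a Groucho corepressor of TCF/LEF proteins, stood at -1.30 (adjusted p = 0.0566) and its relative Tle3 at 0.81 (adjusted p = 0.366) by the authors' deposited table. Tle1 was called with p-values adjusted over genes with means of 10 or more, and with log2 changes centred on the median of all genes. The authors' deposited table gives -0.17 for Bcl9 and 0.12 for Ctbp1. Of the other targets, Ccnd1 (cyclin D1) and Twist1 stood at 0.40 and -0.087 by the authors' deposited table.

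**Figure D5:**
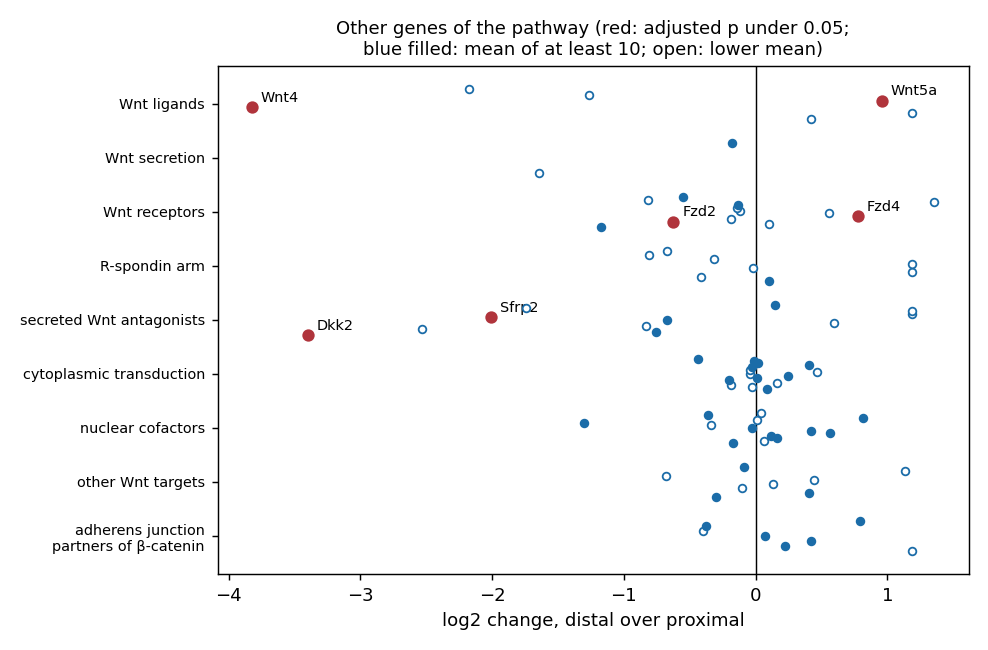
Log2 change of distal over proximal in the authors' deposited table for the 82 genes of 9 pathway lists, 1 row of points a list. The 6 called genes are red and named, and other genes are filled where the mean is at least 10 and open where it is lower. Wnt5a (0.96) and Fzd4 (0.78) lie towards distal, and Fzd2 (-0.62), Sfrp2 (-2.01), Dkk2 (-3.40) and Wnt4 (-3.82) towards proximal, while cytoplasmic transduction genes cluster around 0.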

How the data were processed

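Regions of organoid sections were measured by photo-isolation chemistry, with 1 distal and 1 proximal library of 5 barcoded regions each. The one file is the authors' own comparison, with columns named as in DESeq2 output, per the file headers. The mean is a signal in normalised counts that the authors averaged over all regions, the log2 change and its standard error are the authors' fit, the statistic is a score deposited by the authors, and the p-value and adjusted p are those of the authors' deposited table. Builds mm10 and GRCm38 are named per the submitters' processing notes, and the aligner, counter and its use of strand are not given in the sources used here.

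Counts per region were computed here. Genes with 1 count in all have means on 10 steps, which give the 10 size factors, and each region's side follows from whether the authors' log2 change rises or falls between genes with 1 and with 2 counts there. Whole counts were then sought that give a gene's mean to its last decimal and, in a negative binomial fit with the 1 dispersion that matches the standard error, its log2 change to within 1e-07. Exactly 1 set was found for 6653 of the 6659 genes with a mean under 3, for 286 of 289 with a mean of 5.5 to 6, and for 6 members. The other 3 members have too many possible sets. The search was tested only on simulated counts of genes with a mean under 3 and the same mean on both sides. Axin2 and Dkk1 lie above that range, as do the 286 genes of like mean. So do Wnt4, Dkk2, Tbx4, Acan and the muscle markers Myog, Ttn and Tnnt1. The mean alone fitted 456 sets of counts for Axin2 and 212 for Dkk1, and the log2 change and standard error then left 1 set for each gene.

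Calls are an adjusted p under 0.05. Region values were compared by two-sided exact permutation tests over the 252 splits of 10 regions, on log2(normalised count + 1). The members and lists were chosen with earlier results of these data known. Named besides the members were genes of the pathway lists with an adjusted p under 0.05, those with an unadjusted p under 0.05 and a mean of at least 10, and the 2 of highest mean in each list. Marker genes were named after their values were seen. Alternatives were another threshold, adjustment and centring, a pseudocount of 0.5, another scaling, and leaving out each region. No member's transcript end (last 300 bases) matched another gene over 200 bases at 95% identity (BLAST 2.17.0, GENCODE M21). In that annotation 6 members (Axin2, Ctnnb1, Lef1, Notum, Tcf7 and Tcf7l1) overlap a gene on the opposite strand, so without strand their reads could not be told apart. Another 2 (Nkd1 and Tcf7l2) overlap a gene on the same strand only, where strand would not separate the reads. Intervals cover counting error only. Python 3.11.15 with scipy 1.17.1 was used.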

Additional observations from a re-analysis of the deposited data

Results flagged for a closer look

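Among the 12 groups of 5 regions of the members with solved counts, 2 held a region far from the other 4. Ctnnb1 stood at 9.13 normalised counts in distal region 5, against 2.40 in the next highest distal region, on 3 counts in the shallowest region. Notum stood at 1.79 in distal region 3, against 0 in the other distal regions, on 1 count. Chance flags about 1 in 20 groups of continuous, normally distributed values, and the rate for counts this low was not worked out. A group with counts in only 1 region, as for Notum, is always flagged.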

How the results depend on the processing

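Tcf7l2 was the only called member under all 5 alternatives tried for the call. The 6 called genes of the wider pathway became 2 (Wnt5a and Sfrp2) at an adjusted p under 0.01, and 5 to 7 under the other 4. Adjusted over genes with means of 10 or more, the 5 lacked Dkk2 and Wnt4 and included Tle1, which centring on all genes added as well. Neither centring, a shift of at most 0.067, changed any member's sign or call. Refitted log2 changes without each region in turn lay from -0.67 to 0.37 for Axin2, from -0.36 to 0.99 for Ctnnb1, from -0.44 to 0.78 for Notum, from 0.17 to 0.95 for Tcf7, from -2.01 to -1.15 for Nkd1 and from -2.37 to -1.51 for Dkk1. Differences in mean log2(normalised count + 1) without each region lay from -0.58 to 0.12 for Axin2, from -0.43 to 0.40 for Ctnnb1, from -0.10 to 0.56 for Tcf7, from -0.49 to -0.066 for Notum, from -1.40 to -0.88 for Nkd1 and from -1.97 to -1.26 for Dkk1, whose exact permutation p then ranged from 0.00794 to 0.0476. The sign also changed for Notum as a log2 ratio of means (-0.38), for Ctnnb1 with a pseudocount of 0.5 (-0.084) and for Axin2 scaled by summed solved counts (0.0066), under which Dkk1 passed to the other side of 0.05 (-1.46, exact permutation p 0.0556). The cause was not tested. The spread of Axin2 without proximal region 5 or 1 was chosen after seeing the data. No paired analysis was possible because the region numbers used here are ranks of depth and the labels tie no distal region to a proximal one. Depth limits the distal side most: 3 counts correspond to 9.13 normalised counts in distal region 5 and to 1.24 in proximal region 1.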

Other observations

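Tbx4, a T-box gene known from the hindlimb, was looked at after the values were seen because it splits the distal regions the other way from Axin2. It had 0 counts in distal regions 1 and 5, where Axin2 stood at 9.61 and 12.2 normalised counts, and 8.59, 8.95 and 3.92 normalised counts in distal regions 2, 3 and 4, where Axin2 stood between 1.43 and 1.96. In proximal, Tbx4 lay between 5.33 and 9.50 in all 5 regions. A count of 0 allows up to 3.61 normalised counts in distal region 1 and up to 9.13 in distal region 5, so only the former is a limit under the values of distal regions 2, 3 and 4.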
